A study of Mus musculus with 13 samples.

Results

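The 38 genes described here encode integrins and the proteins that tie integrins to the actin cytoskeleton, out of 21883 protein-coding genes of the RefSeq annotation. They were taken by symbol, with no use of a measured value, and comprise 26 integrin chains (18 alpha and 8 beta) and 12 focal adhesion proteins. Chromatin was examined in 4T1 cells, a line from a spontaneous mammary tumor of a BALB/cJ mouse, by ChIP followed by sequencing (ChIP-seq). The sg-Ctrl cells carried a non-targeting sgRNA, and the knockout (KO) cells were KO-N13, 1 clone in which a guide to Nup210 and Cas9 had been used, so differences between clones and effects of the knockout cannot be told apart. H3K4me3 and H3K27me3 were profiled in both, and NUP210 and the nuclear pore complex (NPC, antibody MAb414, which binds several pore proteins) in sg-Ctrl alone. Each of these 6 conditions had 1 library, so no test over replicates was possible, and the intervals of reads and ratios are 95% intervals of counting error.

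Integrins are pairs of an alpha and a beta chain that bind extracellular matrix or other cells on the outside and, through talin and kindlin, actin on the inside. Clusters of them form focal adhesions, where the kinases FAK and SRC, the scaffold paxillin and the tension-bearing linkers talin and vinculin pass on the stiffness of the surroundings. H3K4me3 marks the transcription start site (TSS) of active or poised genes, and H3K27me3 is deposited by Polycomb over silent genes. NUP210 is a membrane protein of the nuclear pore. The comparisons ask which of these genes lost or gained promoter and Polycomb marks in the KO clone, and which had pore proteins over the gene body.

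Promoter sequence is shown for 5 genes on which the chromatin results turn: Itgb1 and Tln1, whose H3K4me3 was over 2-fold lower in KO by library size (a call that other scalings end, as given with the counts), Itgb8, the member whose H3K4me3 was over 2-fold higher, Itga8, whose start had both marks in sg-Ctrl, and Itga4, which had H3K27me3 over most of its body and no listed H3K4me3 peak. Each line gives the 250 bases before the start on the gene's strand (RefSeq, GRCm38.p6), with CG pairs in capitals. Positions are chr8:128685404-128685653 (+) for Itgb1, chr4:43562584-43562833 (-) for Tln1, chr12:119238277-119238526 (-) for Itgb8, chr2:12301945-12302194 (-) for Itga8 and chr2:79255176-79255425 (+) for Itga4.
Itgb1: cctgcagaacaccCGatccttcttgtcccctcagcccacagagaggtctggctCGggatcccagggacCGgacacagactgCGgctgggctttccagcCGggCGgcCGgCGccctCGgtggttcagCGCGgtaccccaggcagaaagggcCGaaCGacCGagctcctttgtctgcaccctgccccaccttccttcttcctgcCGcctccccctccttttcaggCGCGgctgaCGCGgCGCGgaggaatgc
Tln1: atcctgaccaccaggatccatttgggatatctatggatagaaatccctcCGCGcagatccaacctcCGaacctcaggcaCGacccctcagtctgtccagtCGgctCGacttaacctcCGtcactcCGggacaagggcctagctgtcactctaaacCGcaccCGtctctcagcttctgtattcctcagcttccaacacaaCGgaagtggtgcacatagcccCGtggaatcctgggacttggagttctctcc
Itgb8: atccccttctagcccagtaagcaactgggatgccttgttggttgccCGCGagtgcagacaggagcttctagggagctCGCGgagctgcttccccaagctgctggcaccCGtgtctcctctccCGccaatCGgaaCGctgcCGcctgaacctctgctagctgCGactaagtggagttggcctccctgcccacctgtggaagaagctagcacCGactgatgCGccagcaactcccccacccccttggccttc
Itga8: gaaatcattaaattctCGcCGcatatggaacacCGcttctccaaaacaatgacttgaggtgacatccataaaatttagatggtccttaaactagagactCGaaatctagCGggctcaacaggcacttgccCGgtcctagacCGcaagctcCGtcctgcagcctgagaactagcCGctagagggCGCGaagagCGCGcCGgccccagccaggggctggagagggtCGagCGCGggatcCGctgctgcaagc
Itga4: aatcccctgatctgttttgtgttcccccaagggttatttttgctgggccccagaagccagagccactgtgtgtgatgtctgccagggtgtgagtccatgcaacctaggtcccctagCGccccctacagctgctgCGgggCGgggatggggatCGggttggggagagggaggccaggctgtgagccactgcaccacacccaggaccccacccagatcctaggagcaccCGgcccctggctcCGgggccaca

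The Itgb1 promoter held 21 CG pairs, that of Itga8 18, those of Tln1 and Itgb8 12 each, and that of Itga4 6. The sequence table held 29 starts of 25 members. Of these, 19 lay under an H3K4me3 peak in sg-Ctrl, with a median of 18 CG pairs, and 10 did not, with a median of 5.5. The median over 21262 starts of protein-coding genes was 10. The GC box GGGCGG, the core of SP1 sites, was found on either strand in 14 of the 29 (48.3%) and in 42.6% of all starts. The AP-1 sequence TGANTCA was in 2 of 29 (6.90%, and 6.13% of all), and GGAATG, bound by TEAD factors, in 3 of 29 (10.3%, and 11.7% of all). These matches describe the letters of the window.

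H3K4me3 peaks within 4 kb of the TSS were listed for 27 of the 38 members in sg-Ctrl and 26 in KO, against 52.5% of protein-coding genes in each library. For H3K27me3, 7 members had a listed peak over the gene in sg-Ctrl and 5 in KO (19.6% and 20.2% of genes). NUP210 and NPC peaks were listed for 10 members each (25.9% and 23.5% of genes), and these were the same 10 genes (both listed for 20.4% of genes). That match is of the lists without a limit on FDR, and with a limit the sets differed, as given with the NPC peaks. The members thus stood above the background for H3K4me3, near it for NUP210 and NPC, and at or below it for H3K27me3. No peak of any kind was listed for 7 members: Itga10, Itgae, Itgal, Itgam, Itgax, Itgb7 and Tln2. A gene that is not listed can still have reads below what the peak caller required.

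**Figure D1:**
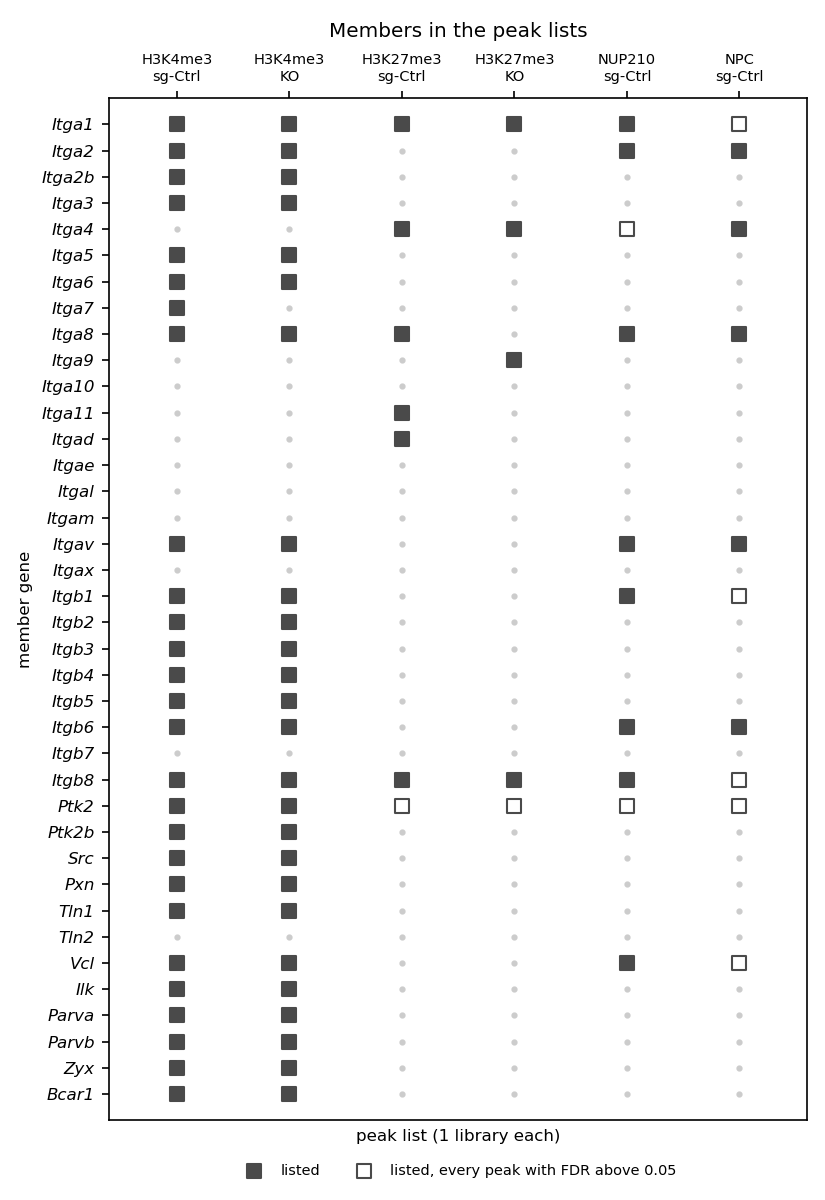
Members (rows) against the 6 peak lists (columns, 1 library each). A filled square marks a listed gene, an open square a gene whose listed peaks all had an FDR above 0.05, and a grey dot a gene without a listed peak. H3K4me3 squares fill most rows, the H3K27me3 columns hold 7 and 5 squares, and the NUP210 and NPC columns hold the same 10 genes.

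H3K4me3 levels are given as reads per kb of TSS peak, with the reads divided by the size of the ChIP library relative to IgG. The median log2 ratio of KO over sg-Ctrl was -0.50 over the 12197 genes with a peak in both libraries, and 88.7% of genes were below 0. Scaling by the reads of peaks with the same position in both libraries adds 0.47 to every log2 ratio, and the all-gene median is then -0.03. Each member is therefore given by its log2 ratio and by its distance from the median of -0.50. The 26 members with a peak in both libraries had a median log2 ratio of -0.49 (from -1.87 to 1.22), with 13 members below the all-gene median and 13 above. At least 2-fold lower H3K4me3 was found for 3 of these 26 members, Itgb2, Itgb1 and Tln1, against 9.66% of all genes, and at least 2-fold higher H3K4me3 for 1 member, Itgb8, against 0.525%. In number, the lower members are close to the background. Of the 3, Itgb2 alone stayed at least 2-fold lower with the shared-peak scaling (-1.40), while Itgb1 had -0.89 and Tln1 -0.68, and the same held relative to the median of all genes and of the chromosome. Bcar1 has a pair of starts, and the one with the most reads per kb differed between the libraries, so its value in these summaries sets different starts against each other. Of 26 counting intervals, 12 lay entirely below the all-gene median and 12 entirely above.

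Itgb2, the beta chain of the leukocyte integrins, had the lowest ratio. Its TSS peak held 972 reads over 2.8 kb in sg-Ctrl and 193 reads over 1.6 kb in KO, or 327 (307 to 348) and 89.5 (77.3 to 103) scaled reads per kb. The log2 ratio was -1.87 (-2.10 to -1.65), 1.37 below the median of all genes, and 0.27% of genes were lower. Total scaled reads of the peak gave -2.68, since the peak was also narrower in KO, and the deposited folds over IgG (17 and 4 IgG reads) gave -0.59. Chromosome 10, which holds Itgb2, had a median of -0.63. None of the alpha chains that pair with it in leukocytes (Itgal, Itgam, Itgax and Itgad) had a listed H3K4me3 peak in either library.

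Itgb1, the common beta chain of the collagen, laminin and fibronectin receptors, had one of the strongest H3K4me3 peaks in sg-Ctrl: 98.7% of listed genes had fewer reads per kb. The peak had 1401 (1378 to 1424) scaled reads per kb for sg-Ctrl and 548 (538 to 559) for KO, from 14561 and 10789 reads. The log2 ratio was -1.35 (-1.39 to -1.32), 0.85 below the all-gene median, with 1.84% of genes lower. The peak was wider in KO, 14.6 against 9.8 kb, and the ratio of total scaled reads was smaller, -0.78. Chromosome 8 had a median of -0.36.

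The Itgb8 peak, over the start of the beta chain that pairs with alpha V and activates latent TGF-beta, was the weakest among the listed members in sg-Ctrl. In KO, Itgb2 was lower. The Itgb8 peak held 55 reads (95% interval 41.4 to 71.6) in sg-Ctrl and 136 (114 to 161) in KO, with 8 and 4 IgG reads, over 1.2 and 1.0 kb. The levels were 43.2 and 101 scaled reads per kb, and the log2 ratio 1.22 (0.76 to 1.70), above 99.7% of genes. With total reads it was 0.96. Both values rest on fewer than 200 reads and both lay far below the median level of 537 in sg-Ctrl and 378 in KO.

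**Figure D2:**
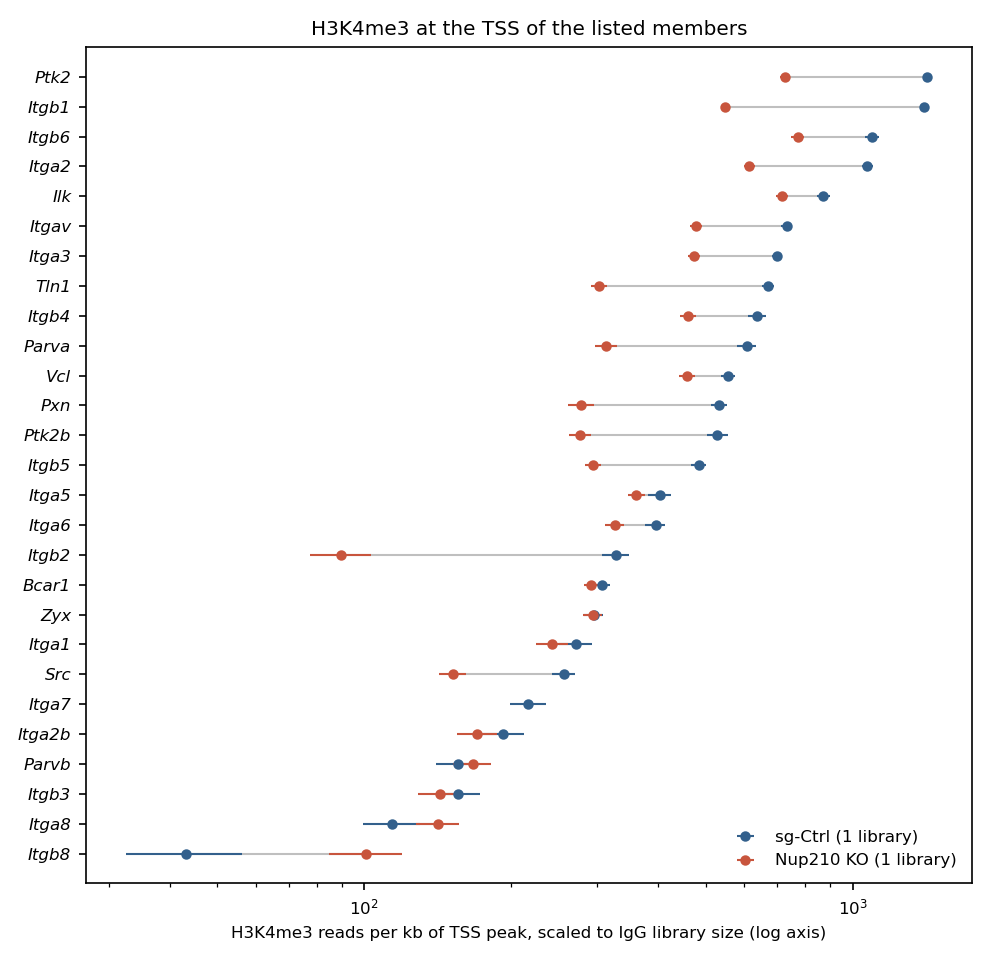
H3K4me3 at the TSS of the 27 members listed in sg-Ctrl, as scaled reads per kb of peak on a log axis. Blue points are sg-Ctrl and red points KO, 1 library each, with exact 95% Poisson intervals. The longest gaps between the points belong to Itgb2, Itgb1, Itgb8 and Tln1, and Itga7 has no KO point. The Bcar1 points are of different starts.

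The other 4 listed beta chains lay within 0.38 of the all-gene median. Itgb5, a vitronectin receptor chain, went from 484 to 294 scaled reads per kb (log2 ratio -0.72), and Itgb6, the epithelial chain that activates latent TGF-beta, from 1095 to 771 (-0.51). For Itgb4, the laminin receptor chain of hemidesmosomes, the values were 637 and 460 (-0.47). Itgb3, the other classical vitronectin receptor chain, had 156 and 143 (-0.12, interval -0.33 to 0.09). The intervals of Itgb4 and Itgb6 included the all-gene median. Itgb7, a chain of lymphocytes, had no listed peak.

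Among the alpha chains, 9 of 18 had a listed peak in sg-Ctrl and 8 in KO. The collagen receptor chain Itga2 had the highest level, 1072 in sg-Ctrl and 614 in KO (scaled reads per kb), and the lowest ratio of the alpha chains (-0.80, interval -0.85 to -0.75). Itgav, which pairs with 5 beta chains, had 733 and 478 (-0.62), and Itga3, a laminin receptor chain, 701 and 474 (-0.56). These 3 were below the all-gene median. Itga3 had -1.04 with total reads, because its peak narrowed from 10 to 7.2 kb.

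The fibronectin receptor chain Itga5 showed how far the measure matters. Its peak held 1368 reads over 3.2 kb in sg-Ctrl and 2431 reads over 5.0 kb in KO. The log2 ratio was -0.16 per kb and 0.48 with total reads, so its direction depends on the measure. Itga6, a laminin receptor chain, had -0.28, and Itga1, which like Itga2 binds collagen, -0.16 (271 and 243 scaled reads per kb). Itga2b, known as the platelet chain, had -0.18, but its peak lay 2084 bp from the TSS. All 4 were above the all-gene median.

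Itga7, a laminin receptor chain of muscle, was the member listed in sg-Ctrl and not in KO. Its sg-Ctrl peak covered the TSS with 551 reads against 20 IgG reads over 2.4 kb, a level of 216 (199 to 235) scaled reads per kb. A peak in sg-Ctrl alone was found for 2.02% of the 12693 genes with a peak in either library, and no member had one in KO alone. Because KO reads are given for listed peaks alone, the size of this difference cannot be given. Itga8, the alpha chain that binds nephronectin, was instead higher in KO, with 218 and 382 reads, 114 and 142 scaled reads per kb and a log2 ratio of 0.31 (0.07 to 0.56). Its peak also met the window of E030013I19Rik, so its reads cannot be assigned to 1 gene. The 5 alpha chains of leukocytes (Itgal, Itgam, Itgax, Itgad and Itgae) had no listed peak, nor had Itga4, Itga9, Itga10 and Itga11.

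The log2 ratios can also be set side by side by receptor. In the collagen receptor alpha 2 beta 1, both chains were below the all-gene median (-0.80 and -1.35). In the fibronectin receptor alpha 5 beta 1, the ratios were -0.16 and -1.35, with intervals on opposite sides of the median. For the laminin receptor alpha 6 beta 4, which epithelial cells use in hemidesmosomes, they were -0.28 and -0.47. The alpha V chain (-0.62) had partners from -1.35 (Itgb1) through -0.72 (Itgb5), -0.51 (Itgb6) and -0.12 (Itgb3) to 1.22 (Itgb8).

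**Figure D3:**
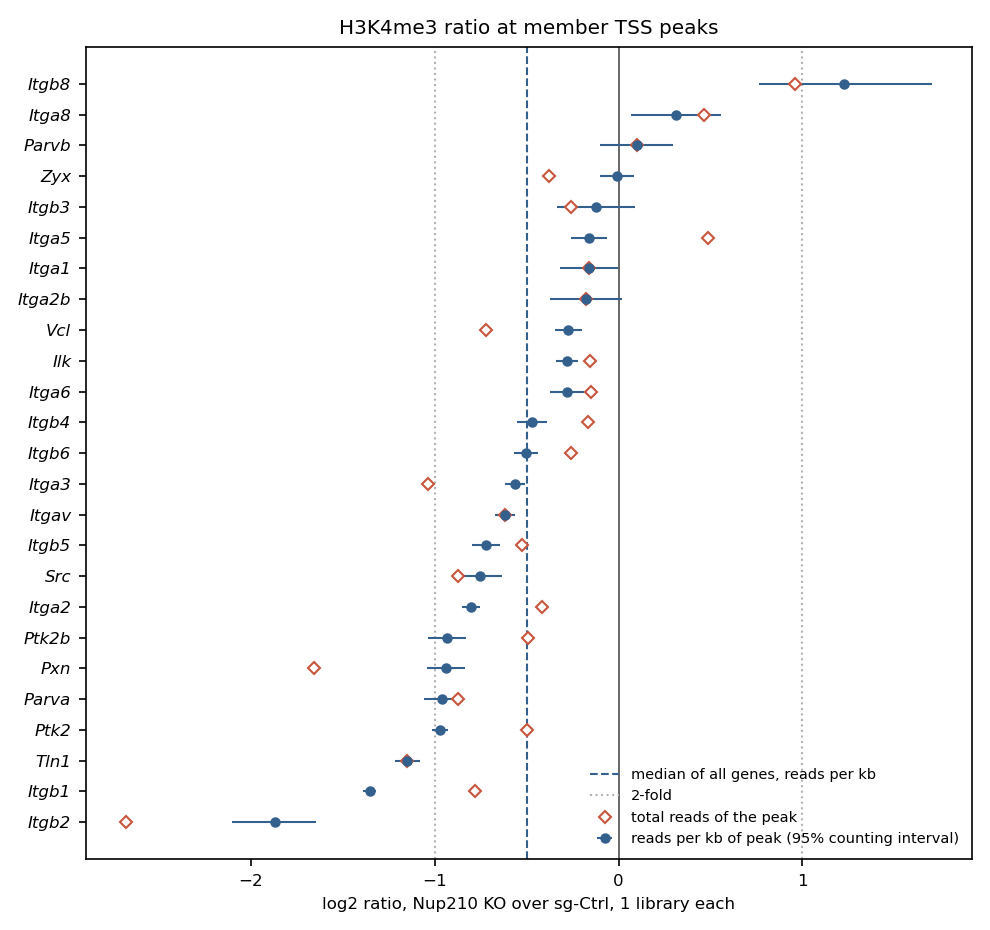
Log2 ratio of H3K4me3 in KO over sg-Ctrl for the 25 members whose peaks in the 2 libraries overlap (Bcar1 is left out). Blue points are reads per kb of peak with 95% counting intervals, open diamonds total reads of the peak, the dashed line the median of all genes (-0.50) and the dotted lines 2-fold. Itgb2, Itgb1 and Tln1 lie left of the 2-fold line and Itgb8 right of it, and for Itga5 the diamond and the point are on opposite sides of 0.

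Of the 12 focal adhesion proteins, 11 had a listed H3K4me3 peak in both libraries, and all but Parvb had a ratio below 0 in reads per kb. Their median log2 ratio was -0.75, against -0.47 for the 15 integrin chains. Relative to the median of all genes, 6 were below and 5 above. Tln1 encodes talin 1, which activates integrins and bears their load. The TSS had 672 (653 to 691) scaled reads per kb for sg-Ctrl and 303 (292 to 315) in KO, from 4704 and 2695 reads over the same 6.6 kb. The log2 ratio was -1.15 (-1.22 to -1.08) by both measures, 0.65 below the all-gene median. Chromosome 4, which holds Tln1, had a median of -0.72 with 23.4% of genes at least 2-fold lower, so Tln1 lay 0.43 below its chromosome. The peak is shared with the neighbouring gene Creb3. Tln2, encoding the second talin, had no listed peak.

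Ptk2 encodes focal adhesion kinase (FAK), the main tyrosine kinase of focal adhesions. It had the highest H3K4me3 level of the members in sg-Ctrl, 1422 (1394 to 1451), and 726 (710.5 to 742) in KO, as scaled reads per kb, from 9355 and 8413 reads. The log2 ratio was -0.97 (-1.01 to -0.93), 0.47 below the all-gene median, and -0.50 with total reads because the peak widened from 6.2 to 8.6 kb. Parva (alpha parvin, which with ILK links integrins to actin) had -0.96, Pxn (paxillin, the scaffold) -0.94 and Ptk2b (PYK2, the kinase related to FAK) -0.93. These 4 genes were each just short of 2-fold by library size, and Src, the kinase that acts with FAK, had -0.75. Relative to the all-gene median the 4 had -0.47 to -0.43 and Src -0.25. Relative to the chromosome median, Parva had -0.60, Ptk2 -0.58, Ptk2b -0.28 and Pxn -0.22. With total reads Pxn had -1.65, since its peak narrowed from 4.6 to 2.8 kb, but its deposited fold over IgG was higher in KO (68.1 and 97.4, with 36 and 8 IgG reads), so its direction depends on the measure.

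The linkers and adaptors at the other end were above the all-gene median in reads per kb. Vcl (vinculin, recruited to stretched talin) had -0.27, Ilk (integrin-linked kinase, a scaffold) -0.28 with a peak shared with Rrp8, and Zyx (zyxin, recruited under tension) -0.01. Parvb (beta parvin) had 0.10 (-0.10 to 0.30). Bcar1, encoding the stretch-sensitive substrate p130Cas, has a pair of listed starts, with log2 ratios of -0.05 (3209 and 3693 reads) and -0.17 (2341 and 3312 reads). With total reads Vcl had -0.72 and Zyx -0.38, below the all-gene median of -0.32 for that measure. The deposited folds of Vcl, 29.7 and 42.1, were higher in KO, so its direction too depends on the measure.

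Other genes of the pathway, taken by list, had medians near that of all genes in reads per kb. With total reads the medians were -0.54 for the adaptors and -0.62 for the ligands, below the -0.32 of all genes. Of 64 further adhesion adaptors and regulators, 51 had a peak in both libraries, with a median log2 ratio of -0.48, and 7 were at least 2-fold lower (Rock1, Fhl2, Cd47, Lpxn, Cdc42, Rac1 and Rap1a) and 0 at least 2-fold higher, or 13.7% lower against 9.66% of all genes. These 7 calls are by library size. Relative to the all-gene median, Rock1 (-1.04) and Fhl2 (-1.02) stayed at least 2-fold lower. Cd47 (-0.67), Lpxn, Cdc42, Rac1 and Rap1a were then short of 2-fold. Rock1, Cdc42 and Rac1 lie on chromosomes 18, 4 and 5, each with a median of -0.72. Relative to its chromosome, Rock1 was short of 2-fold too. With total reads Cd47 (-0.73), Rac1 (-0.73) and Rap1a (-0.41) were short of 2-fold. Rock1, the RHOA-dependent kinase of actomyosin contraction, had 7595 reads in sg-Ctrl and 3433 in KO (-1.54). Fhl2, a LIM protein, had 4653 and 2409 reads (-1.52), and Cd47, the integrin-associated protein, 13781 and 10572 (-1.17). Among the highest were Csk (0.40), the kinase that restrains SRC, and Fyn (0.25), a kinase of the SRC family, and both had fewer scaled total reads in KO (-0.21 and -0.07).

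Among 26 integrin ligands, 19 had a peak in both libraries, with a median log2 ratio of -0.44, and 2 were at least 2-fold lower (10.5%, against 9.66% of all genes) and 0 at least 2-fold higher. Vcam1, the ligand of alpha 4 integrins, had 1409 reads in sg-Ctrl and 162 in KO (-1.73, interval -1.97 to -1.49). Tnc, tenascin C, had 335 and 156 reads (-1.26, but -0.76 relative to the all-gene median, short of 2-fold). Npnt, nephronectin, had 369 and 968 reads (0.94, interval 0.76 to 1.12). This ligand and the peak at the start of its receptor chain Itga8 both had higher H3K4me3 in KO under every scaling used. The Itga8 peak is shared with E030013I19Rik, so its reads cannot be assigned to 1 gene. Cdh1, E-cadherin, had 0.67 per kb and -0.30 with total reads, and Tgfb1 0.17.

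H3K27me3 was listed on 8 members in one library or the other, on 4 of them in both. Itgb8 was covered over its whole body in both libraries, by 1 peak of 111 kb in sg-Ctrl and 109 kb in KO that also reached beyond both ends. Its levels were 59.1 and 58.2 scaled reads per kb (5555 and 16973 reads, folds over IgG of 2.88 and 2.90), so the densities differed by -0.02 on the log2 scale. Its start was the single member TSS with both marks listed in both libraries.

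Itga4, the alpha chain that binds VCAM1 and fibronectin, had H3K27me3 over 91.5% of its body in both libraries and no H3K4me3 peak. One of its peaks, 2.58 to 59.6 kb from the start, had the same position in both, with 1947 reads in sg-Ctrl, 4752 in KO and 948 IgG reads. At this position the scaled levels were 40.3 and 31.2 reads per kb, a log2 ratio of -0.37 (-0.45 to -0.30). This ratio and the H3K27me3 levels of the other members rest on library size, by which KO was 3.16 times deeper. Over the 832 peaks of equal position, KO held 2.85 times the reads of sg-Ctrl. Scaling by those reads was not done for this mark, and would bring the ratio of Itga4 nearer to 0. Its other peak ran past the gene's end and was longer in KO, 109 kb against 48.0 kb. Itga1 had 3 peaks over 33.0 kb in sg-Ctrl and 1 over 44.0 kb in KO, all inside the gene and none at the start, with 28.3 and 23.3 scaled reads per kb. The sg-Ctrl values include a peak of 8 kb, 119 to 127 kb from the start, with a fold of 1.01 and an FDR of 0.44.

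Itga8 had H3K27me3 in sg-Ctrl and no listed peak in KO. In sg-Ctrl, 3 peaks covered 60.9 kb (31.2%) of the gene, the first from -2.08 to 3.92 kb relative to the start, with 133 reads against 35 IgG reads (fold 4.49). The others, inside the gene, had folds of 2.40 and 1.32. The KO library, in which no peak was listed, was the deeper one by 3.16 times. H3K4me3 at the same start was 0.31 higher on the log2 scale. Itga11 and Itgad, the alpha chains of a fibroblast collagen receptor and of a leukocyte integrin, each had 1 peak in sg-Ctrl alone, with 268 and 128 reads and folds of 5.28 and 5.40. A peak in sg-Ctrl alone was found for 2.80% of protein-coding genes.

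The reverse was seen for Itga9, the alpha chain that binds tenascin C and osteopontin. In KO it had 7 separate peaks spread over 294 kb of gene, covering 34.0 kb (11.6%), with 2790 reads against 303 IgG reads and folds from 1.62 to 8.22. No H3K27me3 peak was listed on it in sg-Ctrl, and no H3K4me3 peak in either library. Peaks in KO alone were found for 3.41% of protein-coding genes. The greater depth of the KO library moved with this gain, and its part in the result was not tested.

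Ptk2 was listed for H3K27me3 with ChIP reads below scaled IgG. Its 2 peaks had folds of 0.75 and 0.79 in sg-Ctrl and 0.51 and 0.65 in KO, and every FDR was 1. IgG reads were high there, 33.7 per kb in the sg-Ctrl peaks against a list median of 13.3. These values show no enrichment of H3K27me3 on Ptk2 in either library. With an FDR of at most 0.05, 6 members remained in sg-Ctrl and 4 in KO.

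NUP210 peaks lay on Itga1, Itga2, Itga4, Itga8, Itgav, Itgb1, Itgb6, Itgb8, Ptk2 and Vcl. The 26 peaks were weak, with folds over IgG from 0.84 to 1.81, and 16 had an FDR of at most 0.05. The largest fold was on Vcl, in a peak 104 to 116 kb from the start that lay mostly past the end of the gene, with 327 reads against 179 IgG reads (1.81, interval 1.50 to 2.18). Vcl had 3 more peaks, with folds of 1.18 to 1.33, and was the member with the most peaks at an FDR of at most 0.05 (4). Itga2 followed with 1.42 (284 and 198 reads), then Itgav with 1.36 (209 and 152), Itga1 with 1.35 (317 and 232) and Itga8 with 1.34 (169 and 125). The intervals of these 4 overlap, from 1.18 to 1.71 for Itga2 and 1.05 to 1.70 for Itga8. On Itga4 and Ptk2, every NUP210 peak had a fold below 1, down to 0.84, and an FDR of 1.

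NPC peaks on the same 10 genes numbered 27, with folds of 0.94 to 1.48, and 10 had an FDR of at most 0.05. Of the 26 NUP210 peaks, 22 met an NPC peak, and of the 27 NPC peaks, 23 met a NUP210 peak (70.2% and 82.8% of all listed peaks). The largest NPC fold was on Itgb6 (1.48), followed by Itga2 (1.36) and Itgav (1.35). With an FDR of at most 0.05, 8 members kept a NUP210 peak and 5 an NPC peak. Itga2, Itga8, Itgav and Itgb6 kept both, Itga4 kept an NPC peak alone, and Itga1, Itgb1, Itgb8 and Vcl a NUP210 peak alone. At a fold of at least 2 no member had either kind of peak. IgG reads per kb under the NUP210 peaks of Ptk2 (35.0) and Itgb1 (29.9) were above the list median of 21.6, and their part in the listing was not tested.

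**Figure D4:**
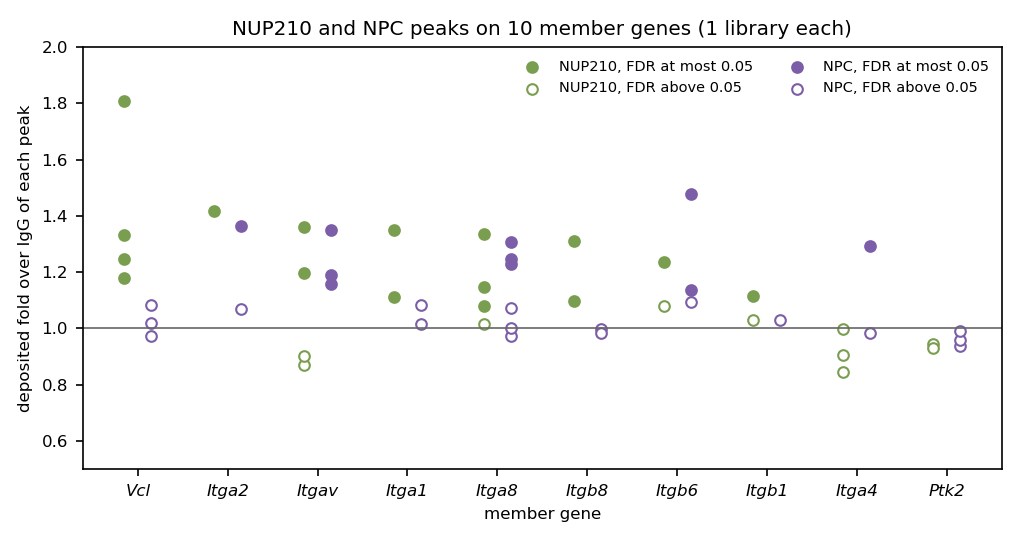
Deposited fold over IgG of each NUP210 (green) and NPC (purple) peak on the 10 members that have them, 1 library each, on an axis from 0.5 to 2. Filled points have an FDR of at most 0.05. The NUP210 peaks of Vcl lie between 1.18 and 1.81, and all points of Ptk2 lie below 1.

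The listing went with gene length. Members had a median length of 59.7 kb against 17.2 kb for all protein-coding genes, and those with a NUP210 peak a median of 102 kb against 37.2 kb for those without. Of the 21 members of at least 50 kb, 9 had a NUP210 peak, against 52.7% of all genes of that length. Of the 17 shorter ones, Itgb1 alone had one, against 18.0%.

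H3K4me3 ratios can be read against NUP210 listing. The 9 members with a NUP210 peak and H3K4me3 in both libraries had a median log2 ratio of -0.51, and the 17 without a NUP210 peak -0.47. Over all genes the medians were -0.60 (3212 genes) and -0.46 (8985 genes). Listed NUP210 peaks overlapped listed H3K27me3 peaks of sg-Ctrl on 5 members, Itga1, Itga4, Itga8, Itgb8 and Ptk2. Of the 26 NUP210 peaks, 10 overlapped an H3K27me3 peak of sg-Ctrl and 7 one of KO (34.9% and 35.6% of all listed NUP210 peaks). Itga4 held 3 of these overlaps in each library and Ptk2 1, and every NUP210 peak on these genes had a fold below 1. The H3K27me3 peaks of Ptk2 also had folds below 1. Counted the other way, 8 of 13 H3K27me3 peaks on members in sg-Ctrl and 5 of 13 in KO met a NUP210 peak (41.8% and 42.0% of all listed H3K27me3 peaks).

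Across the series, the lists held from 8874 to 13204 peaks with 5866175 to 26811061 reads per library, and for H3K4me3 the depth of KO was 1.27 times that of sg-Ctrl. H3K4me3 peaks were listed for all 10 epithelial marker genes in both libraries, and for 1 of 10 leukocyte (Cd68), 0 of 6 endothelial and 2 of 6 fibroblast markers (Pdgfra and Col1a1). Nup210 itself had 885 and 913 H3K4me3 reads at its TSS in sg-Ctrl and KO, but the guide targets an exon inside the gene, so this mark does not check the knockout.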

How the data were processed

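The analysis used 6 deposited ChIP-seq peak lists of 4T1 cells, 1 library each. The authors called peaks with SICER against IgG, with a window of 200 bp (H3K4me3) or 1000 bp (other targets), and matched them to windows of 4 kb around the TSS (H3K4me3) or to gene bodies. For each peak, the authors deposited unnormalized counts of ChIP and IgG reads, the p-value and FDR, and the ratio of the 2 counts after scaling to library size (fold over IgG), in which 0 IgG reads stand as 0.25. The submitters' processing notes name Bowtie2, Picard, STAR and Trimmomatic and the builds mm9, mm10 and NCBIM37, without roles or versions, so the build of the ChIP-seq lists was checked against gene positions. Of 7794 transcripts, 84.6% had an end within 50 bp of GRCm38.p6.

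Library size relative to IgG was recovered from reads and folds (1.06 and 1.35 for H3K4me3 in sg-Ctrl and KO, 0.847 and 2.68 for H3K27me3, 1.01 for NUP210, 0.606 for NPC), and reads were divided by it. All 575 H3K4me3 and 832 H3K27me3 peaks of equal position had equal IgG reads in both lists, so each mark is on one scale. Total depth is unknown beyond these ratios. For genes with several TSS peaks, the one with the most reads per kb was used. Intervals are exact Poisson for reads and exact binomial (Clopper-Pearson) for ratios, at 95%, and cover counting error only. A gene was called at a ratio of at most 0.5 or at least 2. Overlap required 1 bp. Backgrounds given as protein-coding genes are those of RefSeq GRCm38.p6, matched by transcript and then symbol. Those of H3K4me3 ratios (12197 genes) and of H3K4me3 peaks in sg-Ctrl alone (12693 genes) are all listed gene symbols, not limited to protein-coding genes.

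Values are given for members past 2-fold, listed in 1 library alone or with H3K27me3, for the 5 with the highest NUP210 fold, and for Itga7, Itgb2 and Ptk2. Other members are given by value or range. Of the pathway lists, at most 3 genes per direction with at least 100 reads were taken, and genes named beyond these were chosen after their values were seen. Some of the genes this rule names are not reported here. The members and lists were chosen with earlier results of these data known. Alternatives were other scalings, measures, peak choices and limits on FDR, fold and coverage. The H3K4me3 ratio step alone was tested on simulated reads, with 4-fold changes. Peak widths were equal in both simulated libraries and no shift over all genes was set. That simulation therefore cannot show how the calls behave with unequal widths or such a shift. RNA-seq (4 samples) is not used here, and the 3 IgG samples entered through the IgG reads. Software was Python 3.11.15 with scipy 1.17.1, pandas 2.3.3, numpy 2.4.6 and, for plots, matplotlib 3.10.9.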

Additional observations from a re-analysis of the deposited data

How the results depend on the processing

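Of the 9 counts and medians that summarise the members, 36 recomputed values stayed within 1.5 times the count, or within the 95% order-statistic interval of the median, and 13 did not. That interval, -0.80 to -0.16 over 26 members, describes the spread among members and not counting error. The count of members at least 2-fold lower in H3K4me3 (3 as reported) was 1 when scaled by reads of peaks shared by both libraries, 1 relative to the median of all genes and 1 relative to the chromosome median, each time Itgb2, and the share of all genes fell from 9.66% to 1.07%, 0.926% and 0.844%. It was 6 with the authors' fold over IgG (Itgb1, Tln1, Itga1, Itga6, Ptk2b and Bcar1), against 17.5% of all genes. The value of Bcar1 there sets different starts against each other, and its folds at one start were 19.4 and 17.7 and at the other 39.4 and 43.9, so neither was 2-fold lower. The count at least 2-fold higher (1 as reported) was 0 with total reads and 2 with the authors' fold (Itgb8 and Itga8). The folds of Itga1 rest on 2 and 6 IgG reads in sg-Ctrl and KO, with 633 and 719 ChIP reads. Those of Itga8 rest on 8 and 3 IgG reads, and those of Itgb8 on 8 and 4. The median log2 ratio of members (-0.49) became -0.020, 0.013 and -0.035 under the same 3 scalings, as all genes shift with them. NUP210 peaks at least 2-fold over IgG were listed for 0 members and NPC peaks for 0. NPC peaks were listed for 5 members with an FDR of at most 0.05 and for 5 with an FDR of at most 0.01, against 10 as reported. Using the peak that covers the TSS, an alternative chosen after seeing the data, gave 3 lower, 1 higher and a median of -0.51. Itgb2, Itgb1, Tln1 and Itgb8 kept their direction under all of these. No paired analysis was possible because each ChIP-seq condition has 1 library and the RNA-seq samples, whose labels share replicate numbers, were not analysed here. Depth limits Itgb8 most, at 55 reads in sg-Ctrl.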

Other observations

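Among the ligand and adaptor genes, a few changed their place in the lists, and those named here were chosen after their values were seen. Postn, the matrix protein periostin, had an H3K4me3 peak in sg-Ctrl alone (77 reads against 3 IgG reads). In KO alone it had 2 H3K27me3 peaks over 18.9 kb (63.3%) of its body, start included, with 2092 reads against 495 IgG reads and folds of 1.38 and 4.14. Both peaks together had a fold of 1.58. Nid1 (nidogen 1) and Pak1, a kinase downstream of RAC1 and CDC42, had an H3K4me3 peak in sg-Ctrl alone, with 53 and 400 reads. Such a peak was found for 2.02% of the 12693 genes with a peak in either library. Tns1 (tensin 1), a linker of integrins to actin, had an H3K4me3 peak (164 reads) and an H3K27me3 peak in KO alone. Its H3K27me3 peak covered 3 kb (1.40%) of the gene and not its start, with 226 reads against 9 IgG reads (fold 9.38). H3K27me3 was listed for 7 of the 64 adaptors in each library, and for 3 of the 26 ligands in sg-Ctrl and 4 in KO, against 19.6% and 20.2% of protein-coding genes. Efs, Arhgef6 and Fyn had it in sg-Ctrl alone, over 100%, 14.9% and 1.13% of the gene, with 367, 369 and 580 reads. These reads are of whole peaks, 24 kb for Efs, 16 kb for Arhgef6 and 19 kb for Fyn. The Fyn peak covered 2.20 kb of the gene and lay mostly outside it. The adaptors Tns1, Cass4 and Sorbs2 had H3K27me3 in KO alone. The Cass4 peak held 231 reads over 3 kb (fold 3.08), and the Sorbs2 peak had a fold of 0.94, below scaled IgG. H3K27me3 was listed in sg-Ctrl alone for 2.80% of protein-coding genes and in KO alone for 3.41%. On Col1a2, a chain of type I collagen, H3K27me3 covered 35.0% of the gene in sg-Ctrl and 93.6% in KO, while the density over its peaks was 50.5 and 35.3 scaled reads per kb. The KO library of H3K27me3 was 3.16 times deeper. Its part in the KO peaks of Postn, Tns1, Cass4 and Sorbs2 and in the coverage of Col1a2 was not tested.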
